A study of Mus musculus with 20 samples.

Results

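The cytochrome P450 genes of families 1 to 3 were examined in liver and gonadal fat of wild-type and protein kinase C epsilon knockout mice. Members were the protein-coding genes of the count table whose symbol is Cyp, a family number from 1 to 3, a subfamily letter and a gene number. This gave 58 genes of 48440 gene IDs, in 16 subfamilies: 3 genes in family 1, 48 in family 2 and 7 in family 3. The pattern left out Cyp3a41a, Cyp3a41b and Cyp2ab1, whose symbols end in a letter or carry 2 letters. The study sequenced 20 libraries of C57BL/6 mice, 5 in each of 4 groups: liver and gonadal fat pad of mice with the genotype label AdEpsKO (called KO) and of wild-type (WT) mice. Mice of all 4 groups received a high fat diet during 1 week and a 6 h fast. The labels do not spell out AdEpsKO, so which cells lacked Prkce, and which part of the gene was removed, are not known here, nor do they give the sex of the mice. The labels do not say whether libraries with the same number in both tissues came from 1 mouse, so p-values measure the spread between these libraries.

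Cytochrome P450 enzymes of families 1 to 3 are heme monooxygenases of the endoplasmic reticulum that oxidize drugs, steroids, fatty acids and other lipophilic compounds, with electrons passed to them by the reductase Por. The liver is their main site. Many are induced through the receptors Ahr, CAR (Nr1i3) and PXR (Nr1i2), and in mice several differ between the sexes through the pattern of growth hormone release.

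The libraries held 12880933 to 20784145 expected counts. Prkce, the targeted gene, was at 37.1, 44.5, 25.8, 48.2 and 26.5 CPM (counts scaled to the size of the library) in the 5 WT fat libraries and at 24.9, 25.5, 16.1, 25.3 and 20.7 in KO fat. All 5 KO fat values lay below the lowest WT value (two-sided exact permutation test, p = 0.00794, the smallest that 5 against 5 can give). In liver the groups overlapped, with 19.7 ± 4.89 CPM in WT and 15.4 ± 3.57 in KO (SD, n = 5 each, exact permutation p = 0.135). Xist, which is expressed in female cells, was at 620 to 2295 CPM in all 20 libraries, and 4 Y-linked genes summed to at most 7 counts in any. Hepatocyte markers summed to 149300 to 213300 CPM in liver, and adipocyte markers to 12950 to 24790 CPM in fat. Libraries that stood apart were WT liver 2 and 4, where 7 skeletal muscle markers summed to 164 and 251 CPM against at most 27.9 in the other livers. WT fat 4 and KO fat 3 stood apart for hepatocyte markers, at 476 and 430 CPM against 10.8 to 71.3 in the other fat libraries. KO fat 2 did so for urothelium markers, at 1199 CPM against 38.6 to 126.

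In liver, the members together made up 3.04 ± 0.218% of the transcripts in WT and 3.09 ± 0.481% in KO (SD, n = 5 each), on the TPM scale, which also divides by gene length and so allows the levels of different genes to be compared. Averaged over both genotypes, 29 members had at least 100 CPM in liver, 7 had 10 to 100, 6 had 1 to 10, and 16 were under 1 CPM. Those under 1 CPM included Cyp2w1, Cyp2t4, Cyp2s1 and 5 of the 8 Cyp2j genes. Of the 58 members, 43 had enough counts to be tested in liver and 11 in fat, all of which were also tested in liver. The other 15 were tested in neither tissue, and 3 of them (Cyp2c66, Cyp2j11 and Cyp2j13) had no count in any library. These were named after their values were seen.

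Cyp2e1, which oxidizes ethanol, acetone and other small molecules, was the most abundant member by a wide margin. It reached 11720 ± 1079 TPM in WT liver and 10680 ± 2032 TPM in KO liver, and made up 38.5 ± 1.11% of the members' transcripts in WT liver. Its gene lies on chromosome 7, 140763739 to 140774987 (GRCm38). The RefSeq promoter window (GRCm38.p6, chr7:140763569-140763868, plus strand, 250 bases before to 50 after the start) is shown because this gene leads the family in both tissues, with the 1 match to TATAAA, the core of a TATA box, in capitals. It begins 31 bases before the start.

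Cyp2e1: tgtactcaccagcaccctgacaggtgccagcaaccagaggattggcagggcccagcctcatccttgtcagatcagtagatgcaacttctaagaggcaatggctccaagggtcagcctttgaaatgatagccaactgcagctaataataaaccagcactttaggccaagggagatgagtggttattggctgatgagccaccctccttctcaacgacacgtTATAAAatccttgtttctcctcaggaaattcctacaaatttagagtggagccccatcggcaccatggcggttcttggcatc

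Promoter windows were found for 50 of the 58 members. TATAAA, read on either strand, stood in the windows of 26 of the 50, against 13.6% of all 32851 windows of the same length in the RefSeq table. It stood in 18 of the 26 members with at least 100 CPM in liver and in 8 of the 24 others. The shared core of the Ahr site, GCGTG, stood in the windows of 9 members, Cyp1a1, Cyp1b1 and Cyp2b10 among them, against 32.4% of all windows. These matches describe the letters in the window only.

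By subfamily, the 15 Cyp2c genes on chromosome 19 summed to 6119 ± 1003 TPM in WT liver, second to Cyp2e1. The 4 Cyp2a genes on chromosome 7 summed to 5061 ± 1057 TPM. Of these, Cyp2a5, a coumarin hydroxylase, was at 2446 ± 1184 TPM, and its near copy Cyp2a4, a steroid hydroxylase, at 1951 ± 377.6 TPM. The levels of Cyp2a5 and Cyp2a4 overlapped between libraries. The 8 Cyp2d genes on chromosome 15 followed at 2591 ± 198.8 TPM, led by Cyp2d26 with 1417 ± 125 TPM. The 5 Cyp2b genes summed to 1154 ± 276.4 TPM, nearly all from Cyp2b9 (865 ± 177 TPM) and Cyp2b13 (285 ± 119 TPM). Cyp2f2, known for oxidizing naphthalene, was at 745 ± 66.6 TPM. Cyp1a2, the caffeine-oxidizing enzyme of the liver, was at 644 ± 223 TPM. Cyp2j5, an arachidonic acid epoxygenase, was at 671 ± 33 TPM. The 7 Cyp3a genes on chromosome 5, which oxidize steroids and many drugs, summed to 1599 ± 276 TPM in WT and 2150 ± 405.4 in KO. Cyp3a25 was at 560 ± 104 TPM in WT and Cyp3a11 at 568 ± 99 TPM. Their order depends on the gene length used. With the length of the longest transcript Cyp3a11 was at 848 TPM and Cyp3a25 at 479. Cyp2r1, the vitamin D hydroxylase, was at 14.7 ± 2.28 TPM, and Cyp2g1, best known from olfactory tissue, at 6.98 ± 1.62 TPM.

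**Figure D1:**
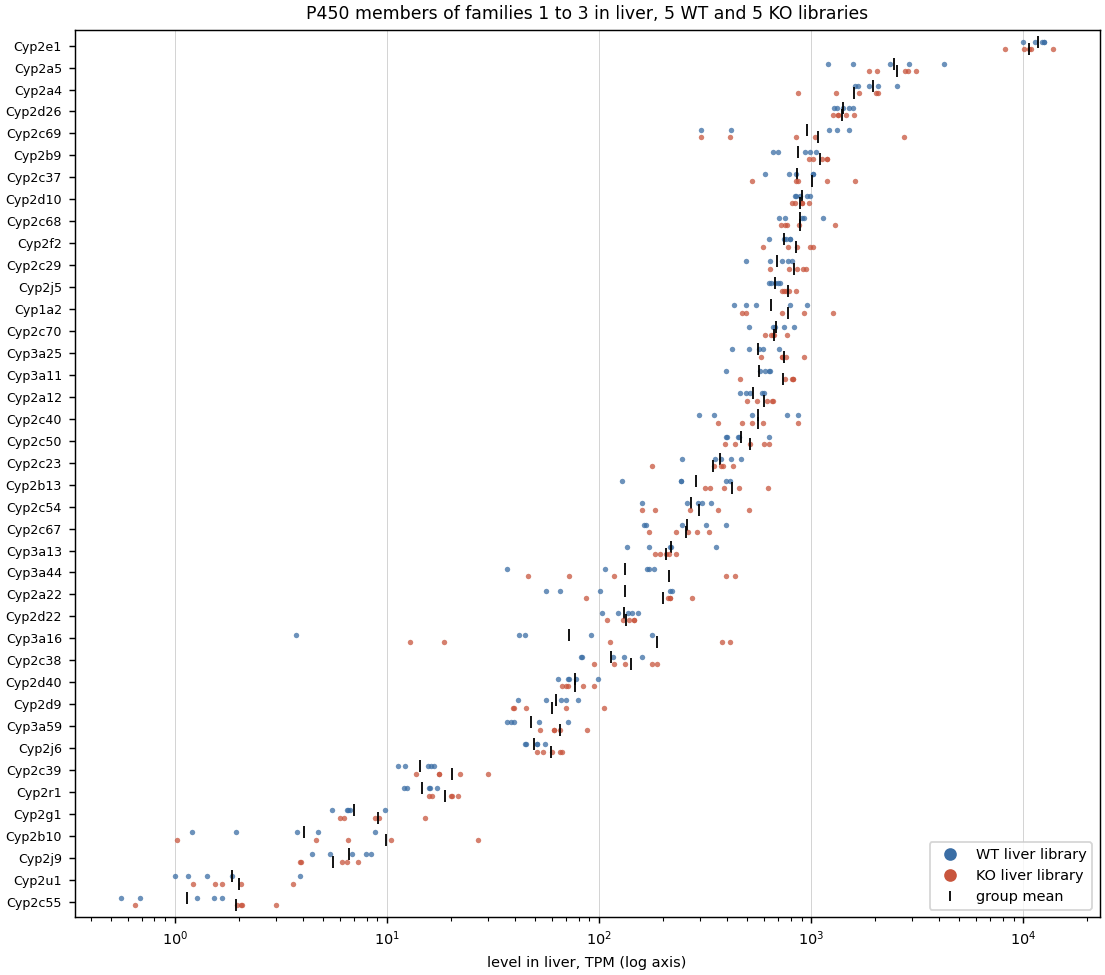
Level of each member with a mean of at least 1 TPM in liver, in TPM on a log axis. Points are the 5 WT (blue) and 5 KO (red) liver libraries and black ticks the group means. Cyp2e1 stands apart at 11720 TPM in WT, and the points of Cyp3a16, Cyp3a44, Cyp2c69 and Cyp2b10 are the most widely spread.

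Many members are near copies of one another, so reads can be shared between them. Of the 50-base windows of each member's longest protein-coding transcript, over 50% also occurred in another gene's transcript for 3 members: Cyp2c40 (72.1%), Cyp2c69 (54.8%) and Cyp2c67 (52.8%). For 18 more members the share was 20 to 50%, among them Cyp2a5 (40.8%), Cyp2a4 (38%), Cyp3a59 (28%), Cyp2b13 (27.3%), Cyp3a25 (26.8%) and Cyp3a44 (26.5%). It was under 5% for 25 members. Expected counts can split such reads by an estimate, which leaves values that are not whole. For Cyp2c40, Cyp2c67 and Cyp2c69, however, 0 of 20 values were not whole. The same held for Cyp2a5, Cyp2b13, Cyp3a25, Cyp3a44 and Cyp3a59, and Cyp2a4 had 1 such value. How reads common to several genes were counted is not known here, so the levels of single genes within these groups remain uncertain.

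The comparison of KO with WT liver asked whether the P450 genes differed with the genotype. No member passed an adjusted p of 0.05 in edgeR's quasi-likelihood test, 0 of 43, with 0.00752% of all 13298 genes tested (1 gene) passing. DESeq2 and limma-voom called 0 members as well, with 0.993% and 0.00752% of all genes called. At an unadjusted p under 0.05 stood 5 members (11.6% of 43), against 13.1% of all genes. All 5 had the higher mean in KO, against 6.56% of all genes with a higher mean at that p. The members' median log2 difference was 0.12, against 0.00 over all genes, and 26 of the 43 had the higher mean in KO (6650 of 13298 genes did). On the CPM scale the libraries of both groups overlapped for every tested member, and 2.84% of all genes tested had groups that did not overlap.

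Of the 5 members, Cyp3a25 stood at 633, 467, 539, 628 and 740 CPM in the WT livers and at 801, 579, 790, 963 and 762 in the KO livers. Its KO/WT ratio was 1.29 (95% interval 1.04 to 1.59, edgeR adjusted p = 0.313). The 4 highest values were KO libraries, while KO 2 lay within the WT range. Cyp3a59, its neighbour in sequence, was at 55.3, 40.5, 37.3, 40.6 and 71.9 CPM in WT and 64.4, 58.9, 65.3, 88.1 and 52.9 in KO, a ratio of 1.33 (1.01 to 1.75, adjusted p = 0.363). The highest value was KO 4, the same library as for Cyp3a25, and the second highest was WT 5, the highest WT library of both genes. Since these genes share 25% of the windows of Cyp3a25, their values may not be independent.

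Cyp2r1 was at 13.6, 13.9, 17, 17 and 18.3 CPM in WT and 22.2, 16.6, 21.4, 16.8 and 22.9 in KO, a ratio of 1.25 (1.03 to 1.51, edgeR adjusted p = 0.337). KO 1, 3 and 5 lay above all WT libraries, and KO 2 and 4 within their range. Cyp2b9, a female-biased member in mouse liver, was at 1052, 655, 662, 943 and 884 CPM in WT and 964, 1016, 1109, 1111 and 960 in KO, a ratio of 1.22 (1.00 to 1.49, adjusted p = 0.371). The KO libraries were close together, and WT 2 and WT 3 were the low ones. Cyp2c39, a retinoic acid and arachidonic acid oxidase, was at 15.6, 10.8, 11.1, 15.4 and 14.3 CPM in WT and 28.5, 15.4, 12.4, 15.9 and 20.1 in KO, a ratio of 1.37 (1.01 to 1.84, adjusted p = 0.364). KO 1, 4 and 5 lay above all WT libraries, KO 4 by a small margin, and KO 2 and 3 within their range.

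This count of 5 members rests on single libraries. It was 0 without WT liver 2, 1 without WT liver 3, and 3 without KO liver 1, 3 or 4, and 0 without both WT libraries that held muscle transcripts. In the fit of all 20 libraries it was also 0. Of 9 macrophage markers, 8 were lower in KO liver at an unadjusted p under 0.05, none of them called. Over all genes, 13.1% stood under that p in either direction. The sum of all 9 markers was 567 to 1076 CPM in WT and 456 to 646 in KO. Of 10 hepatocyte markers, 4 (Apoa1, Ahsg, Fgb and F2) were lower at that p, with sums of 184700 to 213300 CPM in WT and 149300 to 192200 in KO. Their part in the values of the members was not tested. In whole tissue, fewer cells of a type and less RNA per cell cannot be told apart.

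**Figure D2:**
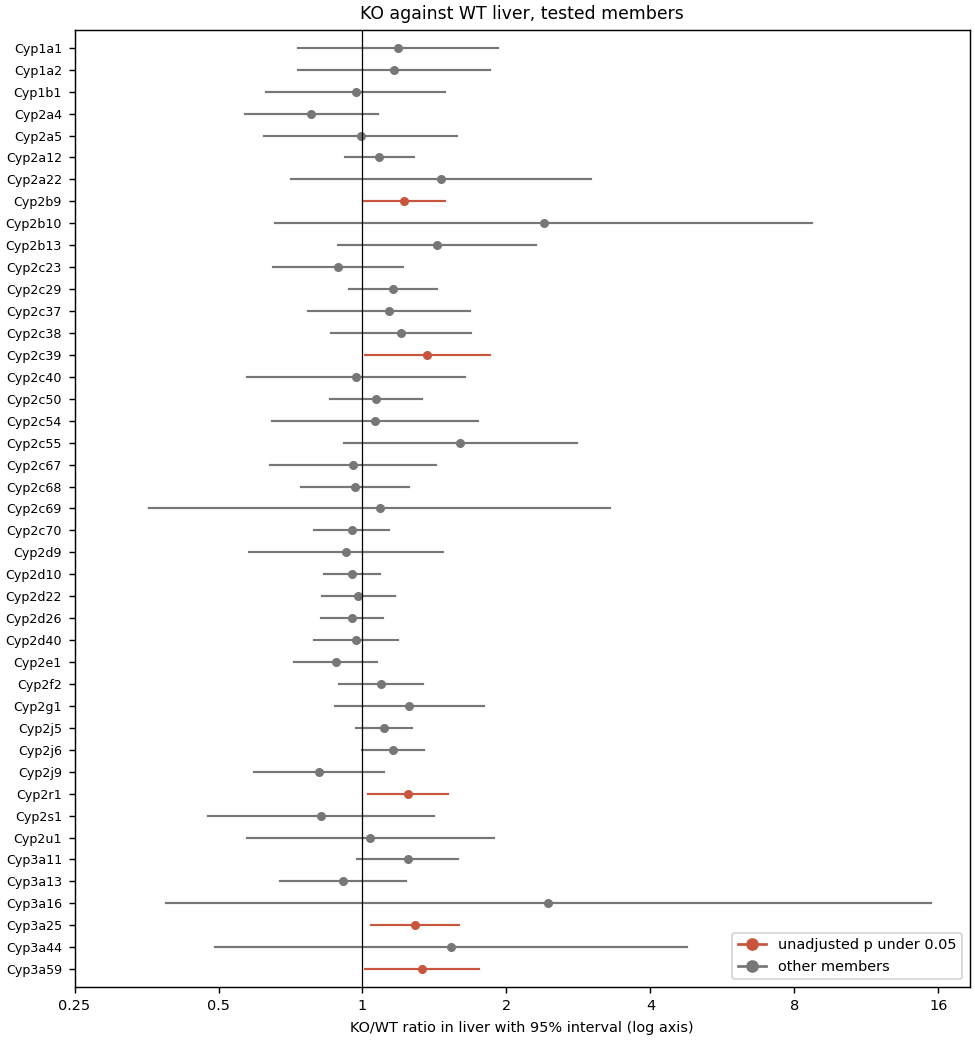
Ratio of KO to WT liver for the 43 tested members, in order of subfamily, on a log axis, with 95% intervals from edgeR's quasi-likelihood fit. Red marks the 5 members with an unadjusted p under 0.05, all to the right of 1, and the widest intervals belong to Cyp3a16, Cyp2b10, Cyp2c69 and Cyp3a44.

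Cyp2e1 was at 13120, 14250, 10900, 13800 and 13340 CPM in WT liver and at 9254, 10410, 11690, 11450 and 14980 in KO, a ratio of 0.879 (95% interval 0.72 to 1.07, edgeR adjusted p = 0.568). KO 5 was the highest of all 10 and KO 1 the lowest. Cyp2e1 made up 37.3 to 40.1% of the members' TPM in the WT livers and 31.8 to 37.0% in the KO livers, ranges that do not overlap. This share was looked at after the levels were known, and no test was made of it. The ratio of Cyp2d26 was 0.951 (0.82 to 1.10), that of Cyp2d22 0.981 (0.823 to 1.17) and that of Cyp2f2 1.09 (0.893 to 1.34).

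Cyp2j5 was at 788, 884, 824, 775 and 797 CPM in WT liver and 897, 888, 873, 890 and 999.6 in KO, a ratio of 1.11 (0.972 to 1.27, edgeR adjusted p = 0.48). WT 2 lay above the lowest KO library, and the other WT libraries below all KO libraries. Cyp2j6, another epoxygenase of the subfamily, had a ratio of 1.16 (0.9998 to 1.35, adjusted p = 0.382). On the TPM scale, which has no scaling factors, Cyp2j5 ran from 629 to 711 in WT and from 728 to 847 in KO, without overlap. It was the only tested member that did so, 1 of 43, against 3.25% of all tested genes with a length, a share that is no result about the members. This scale was looked at after the values were seen.

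Cyp1a2 was at 587, 525, 441, 810 and 976 CPM in WT liver and 519, 705, 1276, 936 and 475 in KO (ratio 1.16, 0.732 to 1.85). Both groups spread over similar ranges. Cyp2a5 had close means in both groups, 2633 ± 1319 CPM in WT and 2623 ± 496.1 in KO. Its WT libraries ran from 1261 to 4653 CPM and enclosed all KO libraries. Cyp2a22, a further Cyp2a gene, was at 98.4 to 396 CPM in WT and 157 to 472 in KO (ratio 1.46, 0.709 to 3.01).

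Some members differed more between mice of 1 group than between the groups. Cyp3a16 was at 165, 84.3, 3.25, 39.4 and 36.4 CPM in WT liver and at 16.8, 346, 97.1, 11.1 and 330 in KO. Its neighbour Cyp3a44, named after its values were seen, was at 176, 189, 36.4, 171 and 106 CPM in WT and at 74.7, 411, 116, 45.4 and 390 in KO. KO 2 and KO 5 were the highest for both genes, and WT 3 was the lowest for both. The ratios of KO to WT were 2.45 for Cyp3a16 (95% interval 0.388 to 15.4, edgeR adjusted p = 0.661) and 1.53 for Cyp3a44 (0.492 to 4.77, adjusted p = 0.746). Their transcripts shared few 50-base windows, 2.2% of those of Cyp3a16 and 1.93% of those of Cyp3a44. Cyp3a41a, outside the symbol pattern, had means of 132 CPM in WT and 230 in KO.

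Both genes lie on the minus strand of chromosome 5, Cyp3a16 at 145436309 to 145469723 and Cyp3a44 at 145773983 to 145805874 (GRCm38). Their RefSeq promoter windows (GRCm38.p6, chr5:145469674-145469973 and chr5:145805825-145806124, minus strand, 250 bases before to 50 after the start) are printed because the 2 genes were high and low in the same livers. Capitals mark bases without an identical partner in the other window. Of 296 aligned bases, 284 (95.9%) were identical. TATAAA occurred once in each, beginning 126 bases before the start of Cyp3a16 and 122 before that of Cyp3a44.

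Cyp3a16: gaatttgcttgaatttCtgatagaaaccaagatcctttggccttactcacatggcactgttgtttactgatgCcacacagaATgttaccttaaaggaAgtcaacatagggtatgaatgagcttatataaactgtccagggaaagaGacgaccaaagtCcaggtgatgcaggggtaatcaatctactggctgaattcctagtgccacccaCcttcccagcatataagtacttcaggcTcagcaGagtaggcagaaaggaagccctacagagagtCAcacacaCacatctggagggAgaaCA
Cyp3a44: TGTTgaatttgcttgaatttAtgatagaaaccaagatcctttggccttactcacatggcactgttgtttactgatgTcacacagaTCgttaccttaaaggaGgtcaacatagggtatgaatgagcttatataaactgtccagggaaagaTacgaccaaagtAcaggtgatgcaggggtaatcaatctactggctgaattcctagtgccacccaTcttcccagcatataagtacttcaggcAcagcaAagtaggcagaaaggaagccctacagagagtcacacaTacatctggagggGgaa

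Cyp2c69, of the female-biased Cyp2c genes, was at 276, 1366, 1043, 1146 and 361 CPM in WT liver and 272, 853, 727, 355 and 2361 in KO. KO 5 alone lay above all WT libraries, and both groups held libraries near 300. Its ratio was 1.09 (95% interval 0.358 to 3.29), and the log2 difference was -0.62 without KO 5. Cyp2b10, the standard target of the receptor CAR, was at 4.25, 2.17, 1.28, 5.09 and 9.32 CPM in WT and 29.7, 6.66, 4.89, 11.1 and 1.09 in KO. KO 1 was the highest of the 10 and KO 5 the lowest. Its ratio was 2.39 (0.657 to 8.71, edgeR adjusted p = 0.538). Cyp2u1, a fatty acid hydroxylase, was at 2.65 to 10.3 CPM in WT and 3.17 to 9.45 in KO, with WT 3 and KO 4 high.

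**Figure D3:**
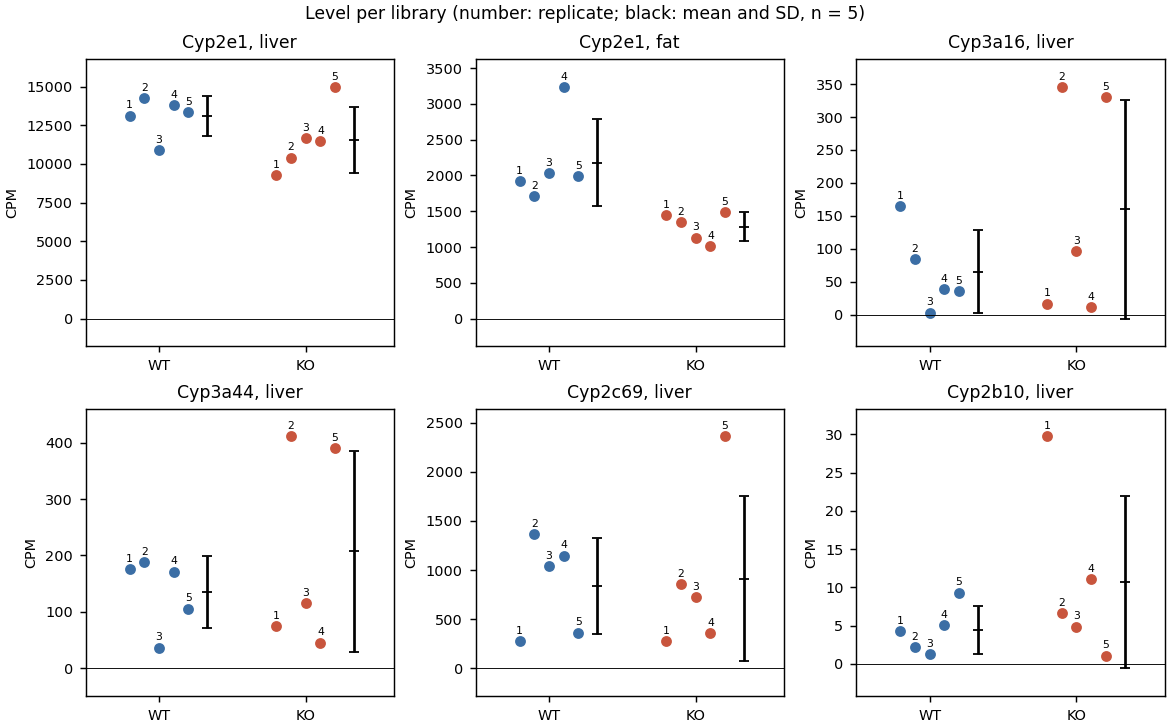
CPM per library for Cyp2e1 in liver and fat and for 4 members with a wide spread in liver. Points are libraries with their replicate numbers, and black marks the mean and SD of 5. The KO fat libraries lie below the WT fat libraries for Cyp2e1, while the panels of Cyp3a16 and Cyp3a44 show KO 2 and KO 5 above all other livers.

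Among lists of related genes, none had a called member in liver. Over all genes tested there, 13.1% stood under an unadjusted p of 0.05, and 6.56% did so with a higher mean. The small counts at that p in the lists are not read as results about the lists. Of 18 regulators and partners of P450 enzymes, 1 was higher and 2 were lower at an unadjusted p under 0.05, with a median log2 difference of 0.03. The higher one was Cyb5b, a cytochrome b5 (ratio 1.18, edgeR adjusted p = 0.317). The lower ones were Nr1i2, which encodes the receptor PXR (ratio 0.782, adjusted p = 0.331), and Alas1, the first enzyme of heme synthesis (ratio 0.634, adjusted p = 0.368). Ahr had a ratio of 1.27 (adjusted p = 0.388) and Por, in liver, one of 0.762 (adjusted p = 0.432).

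Of 12 tested targets of Ahr, CAR or PXR outside the P450 families, 1 was higher and 1 lower at that p, against 13.1% of all genes. Aldh1a1, a retinal dehydrogenase, had a ratio of 1.45 (edgeR adjusted p = 0.309) and Gadd45b, a stress-induced growth arrest gene, one of 0.392 (adjusted p = 0.211). Nqo1, an Ahr target, had a ratio of 1.30 and Slco1a4 one of 1.22, both with intervals that include 1.

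All 16 female-biased genes of the list were tested in liver. Of these 12 had the higher mean in KO, as did 6650 of all 13298 genes (median log2 difference 0.28, against 0.0 over all genes). Cyp2b9 alone stood under an unadjusted p of 0.05. Of 7 tested male-biased genes 2 had the higher mean in KO (median -0.40), and C6 was lower at that p (ratio 0.759, edgeR adjusted p = 0.346). Several intervals were wide, such as 0.388 to 15.4 for the ratio of Cyp3a16 and 0.103 to 4.39 for that of Slco1a1. Genes of a list can also vary together, as Cyp3a16 and Cyp3a44 did, so no shift of either list is read from these counts. Of the 10 genes of growth hormone signalling none stood under that p. Their smallest p-values belonged to Cish (ratio 0.583, 0.333 to 1.02) and Socs2 (0.543, 0.261 to 1.13), both STAT5 targets. Of 10 pericentral genes, which mark the liver zone where most P450 genes are expressed, 1 (Axin2) was higher and 2 were lower at that p. Of 10 periportal genes none was, and over all genes 13.1% stood under that p.

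Gonadal fat served as the reference tissue. There the members made up 0.462 ± 0.13% of TPM in WT and 0.285 ± 0.0354% in KO, and Cyp2e1 alone supplied 96.4% of it in WT and 94.4% in KO. Cyp2e1 was at 4449 ± 1229 TPM in WT fat. The next members were Cyp2d22 with 33.5 ± 5.59 TPM, Cyp2j6 with 30.2 ± 3.51, Cyp2f2 with 22.4 ± 8.41 and Cyp1b1, an estrogen and retinoid oxidase found mainly outside the liver, with 20.6 ± 10.1. The last 4 overlapped between libraries. Only 13 of the 58 members had a mean of at least 1 CPM in fat and 4 had at least 10. The 13 include Cyp2a5 and Cyp2d26, which owed it to WT fat 4 and KO fat 3, the libraries with hepatocyte transcripts. Cyp2a5 was at 6.83 and 5.21 CPM there and at most 1.28 in the other fat libraries. Cyp2d26 was at 4.71 and 4.52 CPM there and at most 0.54 in the others.

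In WT mice, 39 of 42 tested members differed between liver and fat (74.3% of all 14739 genes tested did). Of these 37 were higher in liver, against 35.9% of all genes, and 2 were lower, against 38.4%. In KO mice the counts were the same, 39 of 42 with 37 higher, against 74.4% and 35.6% of all genes, and 2 lower, against 38.8%. Of the 42 members, 31 passed the filter on low counts only through liver, all of them called higher there, so their direction was fixed by the filter and nothing is read from these counts. Of the 11 members that were also tested in fat, 6 were higher in liver in both genotypes, 2 were lower and 3 were not called. DESeq2 called 29 members in WT (74.7% of all genes) and 35 in KO (76.2%), and gave no adjusted p for 10 and 5 members.

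The lower members were Cyp1b1 and Cyp2s1. Cyp1b1 was at 2.01, 1.65, 1.48, 3.58 and 1.45 CPM in WT liver and at 19.5, 17.7, 34.8, 46.4 and 17.1 in WT fat, a liver/fat ratio of 0.0743 (edgeR adjusted p = 2.02e-06). In KO the ratio was 0.0951. Cyp2s1, an enzyme of epithelia, was named after its values were seen and had ratios of 0.1 in WT and 0.0862 in KO. The tissues did not overlap for either gene.

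Of the higher members, Cyp2e1 had the smallest excess after Cyp2j6. Its liver/fat ratio was 5.97 in WT (95% interval 3.92 to 9.1) and 8.78 in KO (5.87 to 13.1). Cyp2j6 had ratios of 3.7 and 4.36, Cyp2d22 of 8.87 and 9.32, Cyp2r1 of 13.2 and 11.5 and Cyp2f2 of 75 and 87.6. The sizes of the ratios in this paragraph depend on the scaling. On the TPM scale, which has no scaling factors, the tissues lay closer together. Cyp2e1 was at 11720 TPM in WT liver and 4449 in WT fat, and at 10680 and 2690 in KO. Cyp2j6 was at 49.5 TPM in WT liver and 30.2 in WT fat. For the members that were not tested in fat, most fat counts lay in the 2 fat libraries with hepatocyte transcripts. WT fat 4 supplied 1428 of the 1760 WT fat counts of these 31 members (81.1%), and KO fat 3 supplied 738 of 1007 in KO (73.3%). Cyp2g1 had no count in the fat libraries and was at least 272-fold higher in WT liver and 311-fold in KO, set against 3 counts over the 5 libraries.

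The 3 tested members that were not called in either genotype were Cyp2u1, Cyp2j9 and Cyp1a1, the last the classical Ahr target. Cyp2u1 was 1.7-fold higher in WT liver (0.953 to 3.03) and Cyp2j9 1.26-fold (0.899 to 1.78). With plain library sizes both turned lower in liver. Cyp2j9 was then called lower (edgeR adjusted p = 0.0231 in WT and 0.00749 in KO), and Cyp2u1 was not called (adjusted p = 0.713 and 0.425). Cyp1a1 was at 0.401 to 1.58 CPM in WT liver and 0.257 to 5.41 in WT fat, and with plain library sizes it was called lower in liver in both genotypes. The tissues differ in library makeup, with scaling factors that place liver and fat CPM on 1 scale.

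**Figure D4:**
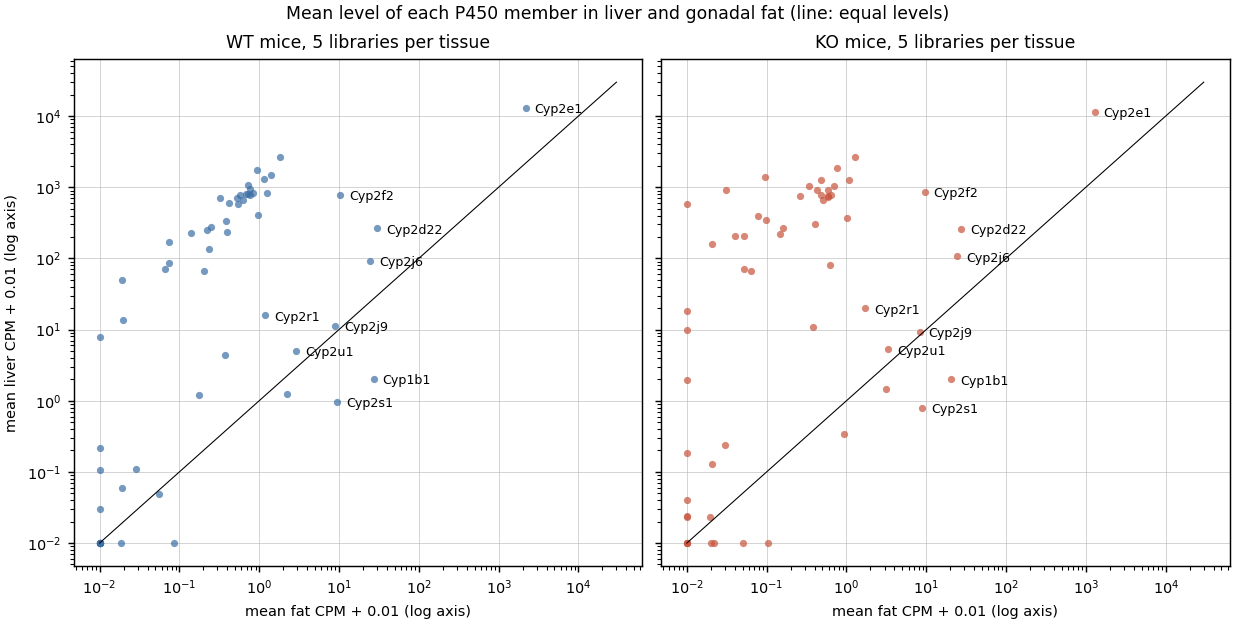
Mean liver CPM against mean fat CPM (both plus 0.01, log axes) for the 58 members, in WT (left) and KO mice (right), 5 libraries per tissue. The line marks equal levels. Of the tested members Cyp1b1 and Cyp2s1 lie well below it, Cyp1a1 lies less far below, and Cyp2j9 and Cyp2u1 lie near it. Cyp2e1 is at the top right.

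In KO against WT fat no member was called, 0 of 11, with 0.0% of 14707 genes called by edgeR. DESeq2 and limma-voom called 0 members, with 0.0884% and 0.0% of all genes called. At an unadjusted p under 0.05 stood 1 member, Cyp2e1, with the lower mean in KO, against 7.13% of all genes and 3.64% with a lower mean. Cyp2e1 was at 1917, 1711, 2033, 3238 and 1986 CPM in WT fat and 1447, 1347, 1131, 1016 and 1483 in KO fat. All 5 KO libraries lay below all 5 WT libraries, which held for 0.639% of all genes, and for 1.26% in either direction. The KO/WT ratio was 0.59 (95% interval 0.435 to 0.8, edgeR adjusted p = 0.687). In DESeq2 the adjusted p was 0.0588.

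The highest Cyp2e1 library, WT fat 4, was 1 of those with hepatocyte transcripts. At the share that its hepatocyte markers give, liver RNA would bring 709 of the 70180 Cyp2e1 counts there. Without WT fat 4 and KO fat 3 the log2 difference was -0.53 instead of -0.76 (edgeR adjusted p = 0.74), and leaving out 1 library at a time gave -0.83 to -0.57. The adipocyte markers summed to 15090 to 24790 CPM in WT and 12950 to 20430 in KO, with 7 of 8 lower in KO. Their part in the Cyp2e1 difference was not tested. Por, the reductase, was at 365 ± 52.4 CPM in WT fat and 262 ± 46.3 in KO fat (ratio 0.717, edgeR adjusted p = 0.687).

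The other 10 members tested in fat had groups that overlapped. Cyp1b1 had a ratio of 0.75 (0.491 to 1.14), Cyp2r1 of 1.42 (0.898 to 2.23), Cyp2d22 of 0.921 (0.759 to 1.12), Cyp2j6 of 0.971 (0.776 to 1.22) and Cyp2f2 of 0.924 (0.413 to 2.07).

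The difference between the KO effect in liver and that in fat was tested over all 20 libraries. No member was called, 0 of 43, with 0.0% of 15652 genes called by edgeR, 0.0% by limma-voom and 0.0128% by DESeq2, which called 0 members as did limma-voom. For Cyp2e1 the KO/WT ratio was 1.5 times larger in liver than in fat (95% interval 0.959 to 2.33, edgeR adjusted p = 0.903). At an unadjusted p under 0.05 stood 6 members (14.0%, against 5.37% of all genes), all with the larger KO/WT ratio in liver (2.61% of all genes), named after their values were seen: Cyp2a4, Cyp2a22, Cyp2b13, Cyp2c40, Cyp2c55 and Cyp2c69. None of the 6 had enough counts to be tested in fat, so the share is not read as a result about the members. Cyp2c55 had 18 counts in WT fat 4 and 0 in each of the other 9 fat libraries. Cyp2c40 for example had 2, 6, 1, 48 and 1 counts in WT fat and 0 in each KO fat library. Without WT fat 4 and KO fat 3 the number under that p was 2, and without KO fat 3 alone it was 10.

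The 2 fat libraries with hepatocyte transcripts differed in their P450 content. The 10 hepatocyte markers stood at 0.262% of their mean liver level in WT fat 4 and at 0.236% in KO fat 3. In each liver, a member's count was divided by the summed count of these markers. Multiplied by the summed marker count of the fat library, this gave the count liver RNA would bring. Its range ran from the lowest to the highest of the 10 livers. A member was placed above or below this range when the exact 95% Poisson interval of its count, which covers counting error only, lay outside it. In WT fat 4, 25 of the 29 members with at least 100 CPM in liver were within the range, and Cyp2c23, Cyp2d22, Cyp2e1 and Cyp2f2 were above it.

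In KO fat 3, 22 of the 29 were within, 3 above and 4 below. The 4 below were Cyp2a4, Cyp2b13, Cyp2c40 and Cyp2c69, all on the female-biased list. Each had 0 counts, where the liver share gives 69.9, 15.6, 26.2 and 40.4. Cyp2a5, the near copy of Cyp2a4, had 98 counts against 120 at the liver share. Cyp2d9, on the male-biased list, had 56 counts against 3.73 (range 2.11 to 7.2), while WT fat 4 had 6 counts of it against 4.76. Cyp2b9, the most abundant female-biased Cyp2b gene, had 16 counts against 42.6 (25.1 to 57.0). Its count was lower than this range, but the Poisson interval of the count reached the range, so it was placed as within. These genes were named after their values were seen.

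Outside the members, Mup20 and Cyp4a12a, both male-biased, had 84 and 8 counts in KO fat 3 against 2.07 and 0.0132. Cyp17a1, which is female-biased, had 1 count against 15.4. In WT fat 4 Mup20 had 6 counts and Cyp17a1 had 33, both within the range. Over the 16 genes of the female-biased list, members included, 6 were below the range in KO fat 3, 9 within and 1 above (Prlr). Of the 9 genes of the male-biased list 7 were above and 2 within, the latter Hsd3b5 and Slco1a1. In WT fat 4, 3 female-biased genes were above and 13 within, and 3 male-biased genes were above and 6 within. C6, Cyp7b1, Elovl3 and Prlr were above the range in both libraries. Their WT fat means were 29.85, 5.12, 3.5 and 22.4 CPM, against 37.7, 25.2, 2.03 and 579.5 in WT liver. For these genes, lying above the range does not set KO fat 3 apart. The 4 Y-linked genes had 7 counts in KO fat 3 and at most 3 in any of the other 19 libraries. No cause of this pattern was tested. Without KO fat 3 the log2 difference of Cyp2e1 between KO and WT fat was -0.72.

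**Figure D5:**
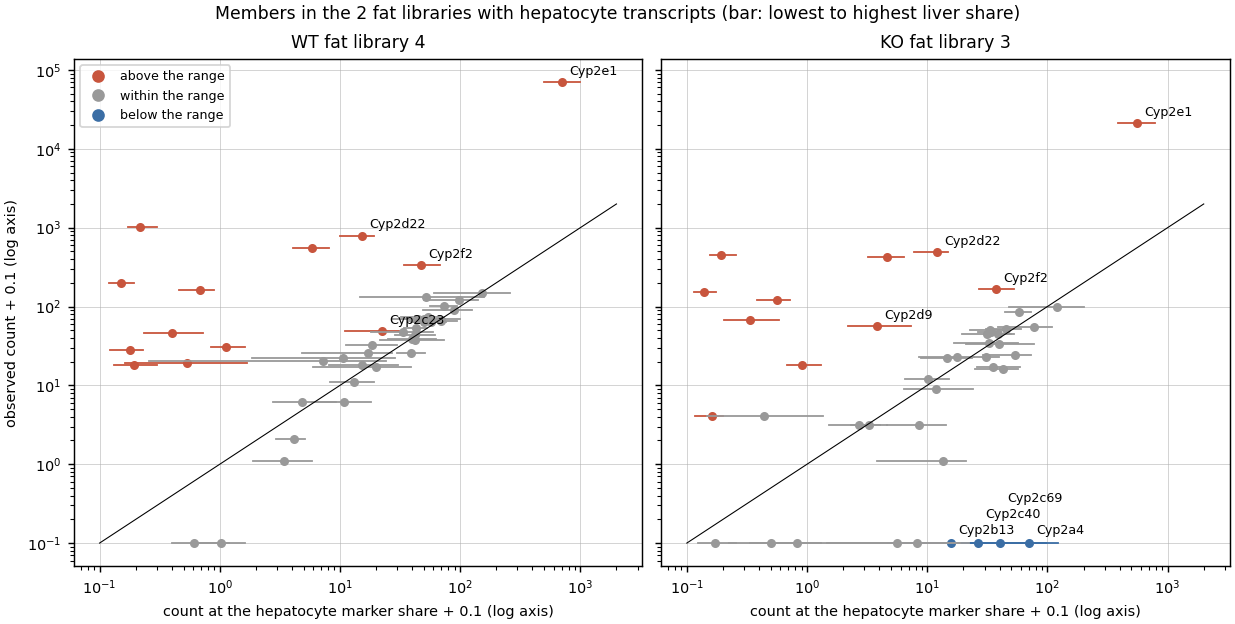
Observed count of each tested member against the count at the hepatocyte marker share (both plus 0.1, log axes) in WT fat 4 (left) and KO fat 3 (right). Bars run from the lowest to the highest liver and the line marks equality. Cyp2a4, Cyp2b13, Cyp2c40 and Cyp2c69 lie at 0 counts on the right only, and Cyp2d9 at 56 counts.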

How the data were processed

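RNA was extracted with RNeasy kits and sequenced after stranded TruSeq mRNA preparation, per the labels' protocols. GRCm38, RSEM 1.2.12, STAR 2.4.0d, DESeq2 and Trim Galore 0.2.8 are listed in the submitters' processing notes. No source used here gives the strand setting or the annotation. The authors deposited expected counts per gene, not normalized. Of these, 3.95 to 5.8% per library were not whole, and all were rounded. Libraries of 1 group differed by more than counting error (chi-square per degree of freedom at least 14.7), so none was counted as a duplicate.

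Genes were kept by filterByExpr (minimum count 10, minimum total 15), scaled by TMM and tested over the whole table with edgeR 4.0.16 (quasi-likelihood, robust; R 4.3.3), with Benjamini-Hochberg adjustment and a threshold of 0.05. CPM used TMM factors over all 20 libraries. TPM used merged exon lengths of GENCODE M21. Intervals are at 95%. Low counts limit the precision of low members, and the SD over 5 libraries holds counting error and differences between mice.

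Alternatives were RLE, upper quartile and no scaling, DESeq2 1.42.0, limma-voom (limma 3.58.1), other filters, other sets of libraries, a replicate block and each library left out. No scaling, and leaving out KO fat 2 with the fat libraries that held hepatocyte transcripts, were chosen after seeing the data. The fits were also run on simulated counts, drawn with 1 spread for all genes. These lack the wide spread and outlying libraries of some members, so nothing about the members is read from them.

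The members and lists were chosen with earlier results of these data known. The naming rule took the leading member of each subfamily by TPM in liver, members with an unadjusted p under 0.05 or groups without overlap, the 6 most variable in WT liver, the 5 highest in WT fat and up to 4 genes of each list by smallest p. Genes outside it were named after their values were seen. Results of some list genes are not reported here. Promoters are from RefSeq (GRCm38.p6).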

Additional observations from a re-analysis of the deposited data

Results flagged for a closer look

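Of 58 groups of 5 libraries looked at for the named members, 6 held 1 library whose gap to the next was over 0.71 of the whole range, and about 1 in 20 groups does so by chance. Cyp1b1 was highest in WT liver 4 (3.58 CPM, others 1.45 to 2.01) and in KO liver 4 (2.97 CPM, others 1.66 to 1.89). WT liver 4 is also the library with the most skeletal muscle transcripts and the one with the lowest Cyp2f2 (653 CPM, others 796 to 820). In KO liver 5, Cyp2c69 was highest (2361 CPM, others 272 to 853), as was Cyp2j5 (999.6 CPM, others 873 to 897). Cyp2e1 was highest in WT fat 4 (3238 CPM, others 1711 to 2033), which also held hepatocyte transcripts.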

How the results depend on the processing

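In every alternative run 0 members were called in KO against WT liver and fat, and in the difference between their KO effects. The number was 29 to 42 in WT liver against WT fat, and 35 to 44 in KO. In the reported tissue tests, 31 of the 42 members passed the filter only through liver, so nothing is read from these ranges. The number with an unadjusted p under 0.05 ran from 0 to 7 in liver and from 1 to 7 in fat, where the absence of a filter and the fit of all 20 libraries gave 7.

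The directions that turned belonged to members not called in the reported comparisons (log2 differences, cause not tested). In KO against WT liver, leaving out both libraries with muscle transcripts gave 0.24 for Cyp1b1 and -0.047 for Cyp2u1. For Cyp2a5, limma-voom gave 0.11, no filter 0.002 and plain library sizes 0.03. For Cyp2c69 limma-voom gave -0.056, and for Cyp2d22 plain library sizes gave 0.003. In fat, leaving out the libraries with hepatocyte transcripts gave 0.12 for Cyp2f2, and leaving out KO fat 2 as well gave 0.086 for Cyp2j6. In liver against fat, plain library sizes gave -0.586 (WT) and -0.75 (KO) for Cyp2j9, called lower there (edgeR adjusted p = 0.0231 and 0.00749), and -0.15 and -0.25 for Cyp2u1, and upper quartile scaling gave -0.14 for Cyp2j9 in KO. Leaving out 1 library in turn gave -0.025 to 0.393 for Cyp1a2, -0.22 to 0.25 for Cyp1b1, -0.18 to 0.29 for Cyp2a5, -0.62 to 0.36 for Cyp2c69, -0.105 to 0.041 for Cyp2d22 and -0.25 to 0.50 for Cyp2u1 in liver. In fat it gave -0.41 to 0.14 for Cyp2f2 and -0.168 to 0.032 for Cyp2j6.

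Libraries share replicate numbers, but same-numbered WT and KO libraries did not deviate together throughout (r from -0.23 to 0.25 in liver, -0.17 to 0.51 in fat). Between same-numbered liver and fat libraries r ran from -0.015 to 0.167 in WT and from -0.014 to 0.051 in KO. These values cannot decide whether they came from 1 mouse, since the tissues of 1 mouse need not deviate together. The reported tests did not take the numbers as pairs. With the replicate block, 0, 0, 39, 39 and 0 members were called in the 5 comparisons, and 6, 1, 39, 39 and 3 stood under an unadjusted p of 0.05. The block gave 0.12 for Cyp2a5 and -0.16 for Cyp2c69 in liver.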

Other observations

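Cyp3a57, at under 1 CPM in liver and too low to be tested, had 93 of its 123 counts in KO fat 2. That library had the highest sums of urothelium and bile duct markers (1199 and 427 CPM). In KO fat the bile duct markers Krt7, Krt19 and Epcam reached 281, 129.7 and 15.1 CPM, while Sox9 and Cftr were at most 1.59 and 0.47. The bile duct sum is therefore not read as bile duct cells.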
